A study of Mus musculus with 6 samples.

Results

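The genes described here are 10 mouse transcription factors of the ETS family that are known from epithelium, from blood vessels or from blood cells: Elf3, Elf5, Ehf, Spdef, Etv4, Etv5, Etv6, Ets1, Ets2 and Fli1. They were chosen by symbol, not by their values, and are 10 of the 24421 genes in the deposited expression table. All 10 had a mean of at least 1 FPKM (fragments mapped per transcript length and library size) over the 6 libraries and entered the test. RNA was measured by sequencing in 3 libraries of mammary tumour and 3 libraries of mammary gland. The tumours came from FVB/NJ; MMTV-Tg(LINK-A) females that carried tumours, and the glands from FVB/NJ; Tg(LINK-A) females, all at 5 months, so both groups are labelled as carrying a transgene for the long noncoding RNA LINK-A. The MMTV promoter named for the tumour strain is active mainly in mammary epithelium, and the gland label names no promoter. Tissue and strain label change together between the groups, so their parts cannot be told apart. The labels do not say that the libraries of a group came from separate mice, and p-values then measure only the spread between these samples, which may be technical.

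ETS factors share a DNA-binding domain, the ETS domain, that recognises sites built around the bases GGAA, and members differ in the cells that make them and in the signals that act on them. In the mammary gland Elf5 is known as a driver of the milk-producing alveolar lineage downstream of prolactin, and Ehf and Elf3 are epithelial relatives of it. Etv4 and Etv5, with Etv1, form the PEA3 group, whose genes and proteins respond to growth factor signalling through the kinase ERK. Ets1, Fli1 and their relative Erg are best known from endothelial and blood cells.

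Because ETS proteins bind GGAA, and several ETS genes are described as regulated by ETS factors, the sequence before the start site is shown for 4 members. Elf3 and Elf5 were 2 epithelial members whose RNA was higher in the tumours, Etv5 was a PEA3 member that was higher, and Etv6 is a member whose difference did not pass the test. Each is printed 5′ to 3′ on the gene's own strand, up to the first base of an annotated exon or the RefSeq start, with GGAA, or TTCC for the same core on the other strand, in capitals. The sequences are from RefSeq on GRCm38.p6, and the starts shown for Elf5 and Etv5 are alternative ones that lie inside the span of the longest gene model. They are chr1:135258569-135258722 on the minus strand for Elf3, chr2:103423818-103424061 on the plus strand for the second RefSeq start of Elf5, chr16:22438369-22438618 on the minus strand for Etv5 and chr6:134035450-134035699 on the plus strand for Etv6.
Elf3: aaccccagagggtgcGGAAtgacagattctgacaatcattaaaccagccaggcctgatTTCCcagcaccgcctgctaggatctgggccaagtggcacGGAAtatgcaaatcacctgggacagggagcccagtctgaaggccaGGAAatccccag
Elf5: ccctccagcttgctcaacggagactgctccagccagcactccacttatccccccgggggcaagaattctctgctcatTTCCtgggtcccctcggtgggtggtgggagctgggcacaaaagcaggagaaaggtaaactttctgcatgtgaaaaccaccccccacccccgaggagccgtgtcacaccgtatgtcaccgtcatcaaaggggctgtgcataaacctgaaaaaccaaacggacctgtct
Etv5: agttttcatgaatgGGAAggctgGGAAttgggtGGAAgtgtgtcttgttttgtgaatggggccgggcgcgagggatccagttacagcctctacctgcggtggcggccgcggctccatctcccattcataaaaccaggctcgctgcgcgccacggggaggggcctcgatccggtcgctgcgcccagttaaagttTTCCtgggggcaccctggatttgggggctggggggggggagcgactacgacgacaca
Etv6: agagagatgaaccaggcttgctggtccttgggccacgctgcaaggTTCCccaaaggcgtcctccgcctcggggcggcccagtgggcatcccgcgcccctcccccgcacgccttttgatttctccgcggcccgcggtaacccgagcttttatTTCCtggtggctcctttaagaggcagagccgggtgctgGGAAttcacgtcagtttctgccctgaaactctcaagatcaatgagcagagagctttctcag
The Elf3 and Etv5 stretches hold 4 cores each, the Etv6 stretch 3 and the Elf5 stretch 1. RefSeq windows of 250 bases before a start matched 6 of the 10 members with 8 windows, and Ehf, Etv4, Ets1 and Fli1 had none. GGAA on either strand was present in 7 of the 8 member windows and in 93.4% of all 32851 windows, with a median of 3 matches per window, a share as high as in the members. The member window without GGAA was the other Etv5 window, chr16:22439571-22439820, so the 4 cores of Etv5 belong to the start shown only. The other Elf5 window, chr2:103411848-103412097, held 2 cores. The longer core CGGAAG, which contains GGAA, was in 13.6% of all windows and in 0 of the 8. The AP-1 motif TGANTCA, bound by Jun and Fos proteins that often act beside ETS factors, was in 6.75% of all windows and likewise in 0 of the 8. A match is a description of letters, not a site, and no match says only that these letters were not in this window.

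The deposited values summed to between 486080 and 582996 FPKM per library, and 13364 genes passed the filter. Their median difference, tumour minus gland on the log2(FPKM + 1) scale, was 0.00832. This scale understates changes of low genes. At a Benjamini-Hochberg adjusted p under 0.05 in limma, 45.1% of tested genes were called, 21.9% higher and 23.1% lower in the tumours, and the 3 tumours and 3 glands did not overlap for 58.2%. The libraries also differed in their marker genes for other cell types. Gland 2 had a summed level of 74.2 FPKM over 11 lymphocyte markers, against 309 FPKM in gland 1 and 315 FPKM in gland 3. In tumour 3 the sum was 6.23 FPKM, against 77.8 FPKM in tumour 1 and 67.8 FPKM in tumour 2, with Cd3d and Ms4a1 among the markers listed at 0. Tumour 3 was also the lowest tumour for all 8 fibroblast, all 5 adipocyte and all 6 basal and myoepithelial markers. It was the lowest of the 3 tumours for 39.4% of all tested genes. For the called members, values without 1 of these libraries are given with each gene below, except for Elf5 and Ehf, whose calls held without any single library.

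Among the 10 members, 5 rose in the tumours (Elf3, Elf5, Ehf, Etv4 and Etv5), 2 fell (Ets1 and Fli1) and 3 did not pass the test (Spdef, Etv6 and Ets2). The 7 called genes were also those whose groups did not overlap. The median difference of the 10 was 0.38. The 7 of 10 called compares with 45.1% of all tested genes, and the 7 of 10 without overlap with 58.2%. Without tumour 3 the counts were again 5 and 2. Without gland 2, and also without gland 3 or tumour 2, 4 members were called higher and 2 lower. With glands 1 and 3 left out, which leaves a single gland, 1 member was called higher (Elf5) and 1 lower (Fli1), against 790 and 1262 of all tested genes. In the glands the members ranged from Elf5 at 166 ± 12.7 FPKM to Spdef at 0.965 ± 0.563 FPKM (SD, n = 3). FPKM is per transcript length, so levels can be set side by side. The order in the glands was Elf5, Ehf, Ets2, Ets1, Etv6, Fli1, Etv5, Elf3, Etv4 and Spdef, and the ranges of neighbours overlapped from Ets2 through Etv5. In the tumours the order was Elf5, Ehf, Ets2, Elf3, Etv5, Etv6, Etv4, Ets1, Fli1 and Spdef. There the ranges of neighbours overlapped from Ets2 through Etv6 and from Etv4 through Fli1. Elf5 and Ehf held the first 2 places in both tissues.

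**Figure D1:**
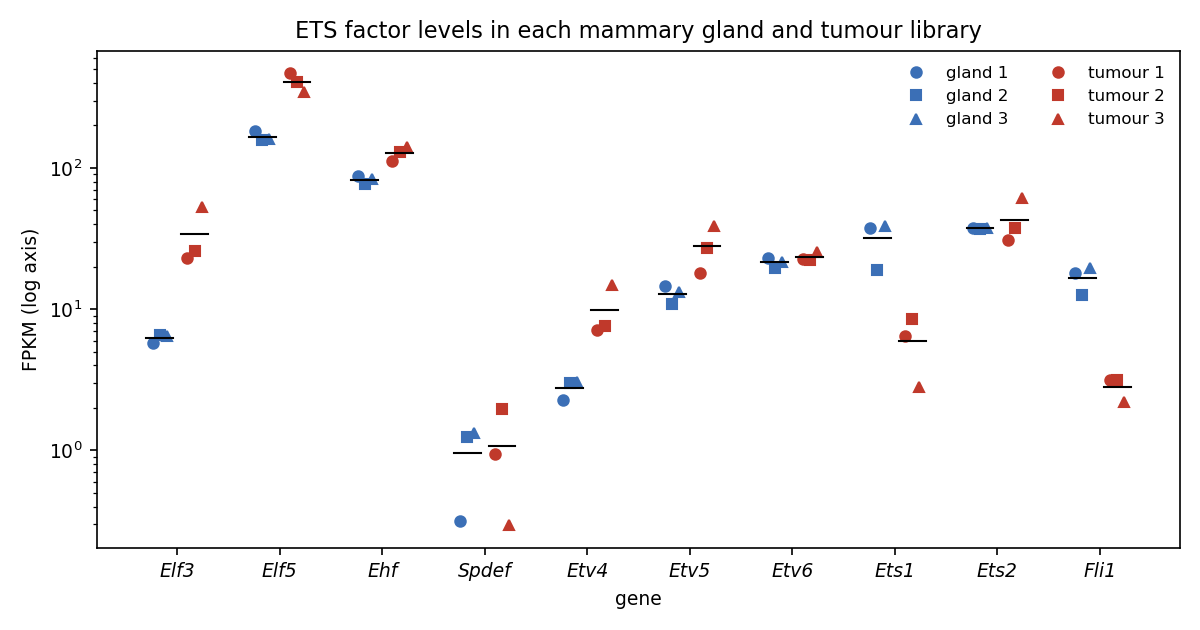
Level of each of the 10 ETS members in each library, in FPKM on a log axis, with the 3 glands and 3 tumours as points and group means as black lines. The glands and tumours are apart for Elf3, Elf5, Ehf, Etv4, Etv5, Ets1 and Fli1, and mixed for Spdef, Etv6 and Ets2.

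Elf5 was the most abundant member in every library. It read 181, 159 and 159 FPKM in glands 1 to 3 and 467, 409 and 344 FPKM in tumours 1 to 3. Every tumour lay far above every gland, and the mean rose 2.44-fold, from 166 ± 12.7 to 407 ± 61.9 FPKM (SD, n = 3 each). The difference was 1.27 on the log2 scale (SE 0.14, 95% interval 0.94 to 1.61, adjusted p = 0.000586). Among the 13364 tested genes Elf5 ranked 411 by mean level in the glands and 175 in the tumours. Ehf, its neighbour on chromosome 2, read 87.7, 76.5 and 84.0 FPKM in the glands and 112, 129 and 142 FPKM in the tumours. The groups were apart by a smaller margin, and the mean rose 1.54-fold (difference 0.61, SE 0.12, adjusted p = 0.00647).

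Elf3, a factor of differentiating simple epithelia, was low in the glands and moderate in the tumours. Its values were 5.79, 6.60 and 6.44 FPKM in the glands and 23.1, 25.9 and 52.5 FPKM in the tumours. Tumour 3 was highest, and the lowest tumour was still over every gland. The mean rose 5.39-fold, from 6.28 ± 0.428 to 33.8 ± 16.2 FPKM, with a difference of 2.17 (SE 0.29, 95% interval 1.47 to 2.86, adjusted p = 0.00129). Without tumour 3 the difference was 1.81. Spdef, which is known for secretory epithelia, was at the edge of detection. It read 0.317, 1.24 and 1.34 FPKM in the glands and 0.946, 1.97 and 0.296 FPKM in the tumours. The groups overlapped throughout (difference 0.04, 95% interval -0.84 to 0.92, adjusted p = 0.944), and its sign depended on single libraries. Spdef was thus measured only at about 1 FPKM, close to the filter.

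Pan-epithelial markers moved in the direction of Elf3, Elf5 and Ehf. For the marker counts that follow, the shares over all tested genes were 21.9% higher and 23.1% lower. All 8 pan-epithelial markers rose, with a median difference of 1.28, and their summed level went from 972 to 1044 FPKM in the glands to between 2607 and 2796 FPKM in the tumours. None was at 0. With glands 1 and 3 left out 6 of the 8 were called higher. Of 6 basal and myoepithelial markers 0 rose, 3 fell (Acta2, Myh11 and Oxtr) and 3 did not pass (Krt5, Krt14 and Trp63). Their sum was 533 to 576 FPKM in the glands and 91.1 to 292 FPKM in the tumours. Without tumour 3, 2 of these were called higher and 3 lower. Fibroblast and adipocyte markers moved opposite to the pan-epithelial list. All 8 fibroblast markers fell, with a summed level of 1835 to 1968 FPKM in the glands and 126 to 427 FPKM in the tumours. All 5 adipocyte markers fell as well, from a sum of 5870 to 7063 FPKM in the glands to between 33.3 and 224 FPKM in the tumours. With glands 1 and 3 left out, 2 of the 8 and 4 of the 5 were called lower. The part of these other markers in the rise of Elf3, Elf5 and Ehf was not tested. In bulk tissue a change in the number of cells of a type and a change in RNA per cell cannot be told apart. As a percentage of the pan-epithelial sum, Elf5 was 17.8, 16.3 and 15.3% in the glands and 17.7, 15.7 and 12.3% in the tumours. Relative to the mean log2 level of the pan-epithelial list, the Elf5 difference was 0.04 (95% interval -0.38 to 0.45, adjusted p = 0.883). Ehf went from 7.87 to 8.60% of the sum in the glands to between 4.24 and 5.07% in the tumours. Relative to the list Ehf was lower in the tumours, by -0.63 (SE 0.10, 95% interval -0.86 to -0.39, adjusted p = 0.00244), while its level was higher. Elf3 went from 0.568 to 0.679% in the glands to between 0.875 and 1.88% in the tumours and stayed higher relative to the list (0.93, 95% interval 0.32 to 1.53, adjusted p = 0.0236). Spdef relative to the list gave -1.20 (95% interval -2.14 to -0.25, adjusted p = 0.0455), from values near the filter. That is the rise of the list subtracted from a Spdef difference near 0, and no separate result. These are measures relative to a list of 8 genes that itself changed.

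**Figure D2:**
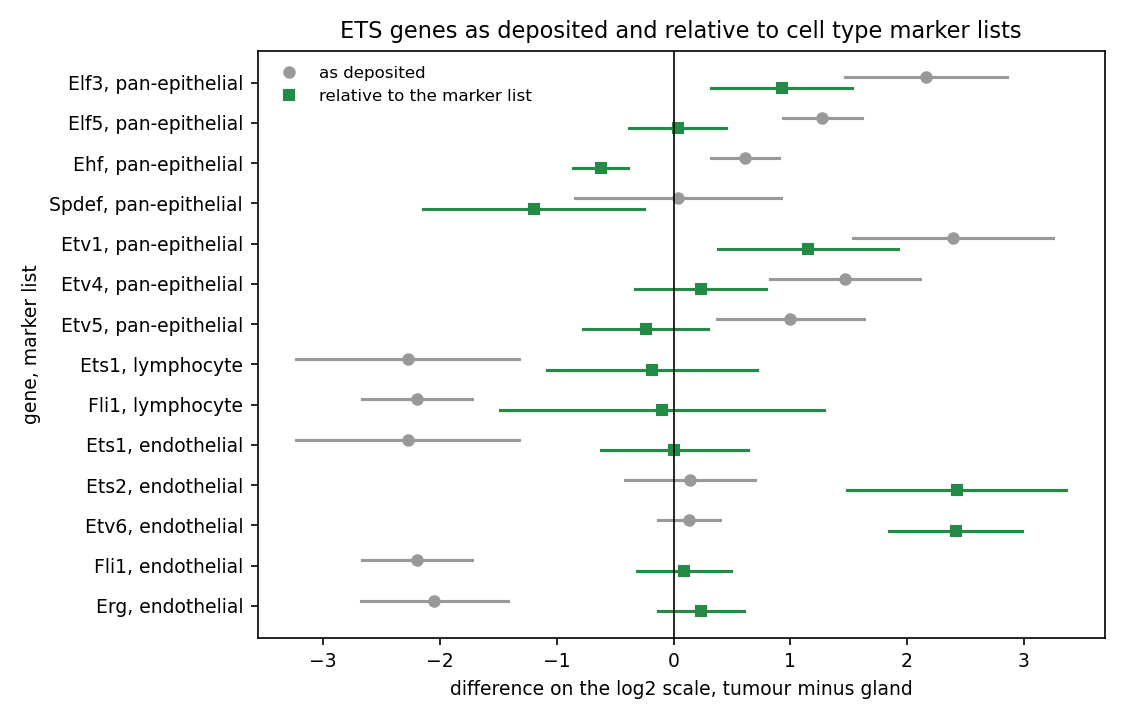
Tumour minus gland difference of ETS genes on the log2(FPKM + 1) scale, as deposited and relative to the mean of a marker list in the same library, with 95% intervals. Elf5 moves from 1.27 to 0.04 and Fli1 from -2.19 to 0.09 when set against its list, while Elf3 stays above 0 and Ehf changes sign.

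The PEA3 factors were low in the glands and higher in the tumours. Etv4 read 2.27, 2.98 and 3.05 FPKM in the glands and 7.18, 7.60 and 14.9 FPKM in the tumours. Tumours 1 and 2 were close together and tumour 3 was highest. The mean rose 3.58-fold (difference 1.47, SE 0.27, 95% interval 0.82 to 2.12, adjusted p = 0.00485), and without tumour 3 the difference was 1.16. Etv5, the more abundant of the pair, read 14.6, 10.9 and 13.3 FPKM in the glands and 18.1, 27.0 and 38.7 FPKM in the tumours. The groups were apart, by a small margin at tumour 1. The mean rose 2.16-fold, from 12.9 ± 1.89 to 27.9 ± 10.3 FPKM (difference 1.0, 95% interval 0.37 to 1.63, adjusted p = 0.0205). Without tumour 3 the difference was 0.74 (adjusted p = 0.0247). This call was lost with the removal of any of 3 libraries, which were gland 2 (0.89, adjusted p = 0.0664), gland 3 (1.02, adjusted p = 0.0578) and tumour 2 (0.99, adjusted p = 0.0621), and over all alternatives the adjusted p ranged from 0.00509 to 0.165.

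Etv1, the remaining PEA3 factor, was followed as a relative. Its values were 1.69, 2.03 and 1.74 FPKM in the glands and 9.26, 10.5 and 26.4 FPKM in the tumours, so every tumour was over every gland. The difference was 2.39 (SE 0.36, adjusted p = 0.00204), and 1.95 without tumour 3. Summed over the 3 factors the level was 15.9 to 18.5 FPKM in the glands and 34.5, 45.1 and 80.0 FPKM in tumours 1 to 3. Within that sum Etv5 went from 68.4 to 78.6% in the glands to between 48.3 and 59.9% in the tumours, and Etv1 from 9.10 to 12.8% to between 23.3 and 33.0%. Relative to the pan-epithelial list, a comparison chosen after seeing the data, the differences were 1.15 for Etv1 (adjusted p = 0.0255), 0.23 for Etv4 (95% interval -0.33 to 0.80, adjusted p = 0.462) and -0.24 for Etv5 (95% interval -0.77 to 0.30, adjusted p = 0.425). The change of Etv4 minus Etv5 was 0.47 on the log2 scale (exact permutation test, 2-sided, p = 0.2, 0.3 after adjustment over 3 pairs). With 3 libraries against 3 that test cannot go below 0.1.

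ERK signalling is read in tissue from the genes it induces, among them phosphatases and Sprouty proteins that feed back on the pathway. Of 14 tested genes on a list of 16 ERK output genes, 6 rose, 2 fell and 6 did not pass, with a median difference of 0.33. Over all tested genes 21.9% rose and 23.1% fell. Ier3, an immediate early gene, went from a mean of 9.39 to 95.1 FPKM (difference 3.18, adjusted p = 0.000109). Epha2, an ephrin receptor, went from 3.41 to 15.0 FPKM (1.84, adjusted p = 0.000287), and Phlda1 from 85.3 to 196 FPKM (1.18). Dusp5, Dusp6 and Spry2, which are feedback inhibitors, also rose. Spry1, another Sprouty protein, fell from 12.3 to 5.20 FPKM (-1.11), and Egr1 fell as well. Without tumour 3 the counts were 5 higher and 3 lower, and with glands 1 and 3 left out 3 higher and 0 lower. Only 1 was called lower without gland 1, gland 2, gland 3 or tumour 2. Tumour 3 was the highest tumour for 13 of the 14 tested genes of this list and for all 3 PEA3 factors, against 40.7% of all tested genes. Tumour 3 was also highest for 11 of 16 ETS cofactors and regulators, 5 of 8 pan-epithelial markers and 5 of 8 hormone-sensing genes. It was highest for 6 of 14 genes of the alveolar list and 0 of 8 fibroblast markers. These counts were made after the values were seen.

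**Figure D3:**
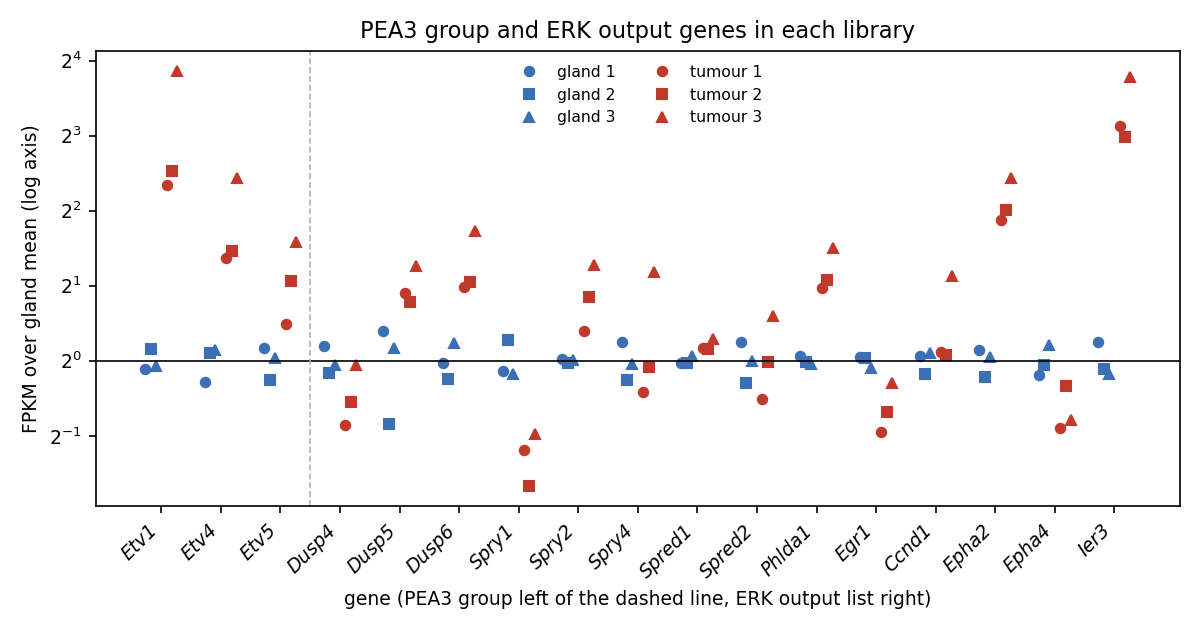
Level of Etv1, Etv4 and Etv5 and of the 14 tested ERK output genes in each library, as FPKM divided by the mean of the 3 glands on a log axis, with glands and tumours as points. Tumour 3 is the highest tumour for Etv1 (26.4 FPKM), Etv4 (14.9 FPKM) and Etv5 (38.7 FPKM).

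Fli1 and Ets1 fell. Fli1, a factor of endothelium and of megakaryocytes, read 18.0, 12.6 and 19.5 FPKM in the glands and 3.13, 3.16 and 2.22 FPKM in the tumours. The tumours were tightly grouped and far below every gland. The mean of the glands was 5.89 times that of the tumours (difference -2.19, SE 0.20, 95% interval -2.66 to -1.72, adjusted p = 0.000256). Ets1, known from endothelium and lymphocytes, read 37.8, 18.9 and 38.6 FPKM in the glands and 6.47, 8.51 and 2.80 FPKM in the tumours. Gland 2 was the lowest gland for both genes, and its Ets1 value lay between those of the other glands and those of the tumours. The Ets1 difference was -2.28 (SE 0.40, 95% interval -3.23 to -1.32, adjusted p = 0.004). Without tumour 3 it was -1.89 and without gland 2 it was -2.60, and for Fli1 the same removals gave -2.07 and -2.38. With only gland 2 left in the gland group, Fli1 was lower by -1.83 (adjusted p = 0.0272) and Ets1 by -1.63 (adjusted p = 0.157). The lone gland is then assumed to vary like the tumours.

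Endothelial markers were also lower in the tumours. For this list and the lymphocyte list below, the share of all tested genes called lower was 23.1%. All 12 endothelial markers fell, with a median difference of -2.25 and a summed level of 334 to 386 FPKM in the glands and 41.2 to 80.4 FPKM in the tumours. With glands 1 and 3 left out 6 of the 12 were called lower. Fli1 was 4.71, 3.76 and 5.06% of the endothelial sum in the glands and 4.17, 3.93 and 5.39% in the tumours. Those ranges overlapped, and relative to the endothelial list its difference was 0.09 (95% interval -0.31 to 0.50, adjusted p = 0.694). Ets1 was 9.87, 5.67 and 10.01% in the glands and 8.63, 10.6 and 6.79% in the tumours, with a relative difference of 0.01 (95% interval -0.62 to 0.64, adjusted p = 0.984). Of the 11 lymphocyte markers 5 fell and 6 did not pass (median difference -2.06), and the summed levels overlapped, since gland 2 (74.2 FPKM) lay under tumour 1 (77.8 FPKM). The count of lower markers was 1 without gland 1 or without gland 3, 9 without gland 2, and 0 with glands 1 and 3 left out. Ets1 was 12.2, 25.5 and 12.3% of the lymphocyte sum in the glands and 8.31, 12.5 and 44.9% in the tumours. Fli1 was 5.84, 16.9 and 6.19% in the glands and 4.02, 4.66 and 35.6% in the tumours, and for both genes gland 2 and tumour 3 were the highest of their groups. Relative to the lymphocyte list the differences were -0.18 for Ets1 (95% interval -1.08 to 0.72, adjusted p = 0.722) and -0.10 for Fli1 (95% interval -1.49 to 1.29, adjusted p = 0.905). Erg read 10.1, 8.04 and 7.55 FPKM in the glands and 1.65, 1.95 and 0.550 FPKM in the tumours, and fell (-2.05, adjusted p = 0.00107). Its share of the endothelial sum was 1.96 to 2.63% in the glands and 1.34 to 2.43% in the tumours, and its difference relative to the list, a comparison chosen after seeing the data, was 0.24 (95% interval -0.13 to 0.61, adjusted p = 0.252).

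Ets2 and Etv6 were expressed at moderate levels in both tissues. Ets2, a nuclear target of ERK, read 37.5, 37.2 and 37.3 FPKM in the glands and 30.8, 37.4 and 61.0 FPKM in the tumours. The glands were nearly identical while the tumours lay on both sides of them. Its difference was 0.14 (SE 0.23, 95% interval -0.41 to 0.70, adjusted p = 0.649), and -0.13 without tumour 3. Etv6, a repressor needed for blood stem cells, read 23.2, 19.5 and 21.6 FPKM in the glands and 22.7, 22.3 and 25.6 FPKM in the tumours. The difference was 0.13 (95% interval -0.13 to 0.40, adjusted p = 0.373), an interval that leaves out a change as large as those of the 7 called members. Set against the endothelial list, the values were 2.43 for Ets2 and 2.42 for Etv6, which is the fall of the list added to differences near 0 and no separate result. Over Ets1, Ets2, Fli1 and Erg together, Ets2 made up 36.2 to 48.5% of the summed level in the glands and 73.3 to 91.6% in the tumours.

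Of the 16 other ETS genes, 14 were tested, and Etv2 and Fev were listed at 0 in all 6 libraries. Of the 14, 2 rose, 6 fell and 6 did not pass, against 21.9% higher and 23.1% lower of all tested genes. Without tumour 3, 2 were called higher and 4 lower, without gland 1 or without gland 3 it was 2 and 3, and with glands 1 and 3 left out 0 in either direction. Their median difference was -0.34. Etv1 and Erf rose. Erf, a repressor that ERK exports from the nucleus, read 13.5, 11.4 and 13.0 FPKM in the glands and 19.4, 22.6 and 22.5 FPKM in the tumours (0.72, SE 0.12, adjusted p = 0.0028). Beside Erg, Elk3, which is active in vessels, fell from 14.5, 13.1 and 14.5 FPKM to 7.68, 8.07 and 6.58 FPKM (-0.83, adjusted p = 0.00165). Elf4, Spic, Spib and Spi1, all known from blood cells, also fell. Elf4 differed by -1.16 (adjusted p = 0.0143), a call lost in 4 of 13 alternatives, among them without gland 1 (adjusted p = 0.051), without gland 3 (adjusted p = 0.0578) and with quantile normalization (adjusted p = 0.0527). Its adjusted p ranged from 0.00253 to 0.208. The difference of Spic was -1.37 (adjusted p = 0.00694). Spic had a tumour mean of 0.786 FPKM and passed the filter only through the glands. Spib, a B cell factor, read 11.6, 2.37 and 11.4 FPKM in the glands and 1.12, 2.26 and 0 FPKM in the tumours (-2.08, adjusted p = 0.0324). Gland 2 was close to tumours 1 and 2, as it was for the lymphocyte markers, and with glands 1 and 3 left out Spib differed by -0.82 (adjusted p = 0.489). Its call was lost in 8 of 13 alternatives, among them without gland 1 (adjusted p = 0.0958), gland 3 (0.106), tumour 1 (0.0662) or tumour 3 (0.0695), and its difference was -2.71 without gland 2. As a percentage of the lymphocyte sum Spib was 3.74, 3.19 and 3.63% in the glands and 1.44, 3.32 and 0% in the tumours, with tumour 2 in the range of the glands. The Spi1 difference was -0.75 (adjusted p = 0.0465) and lost its call in 7 of 14 alternatives. Elf1, Elf2, Elk1, Elk4, Etv3 and Gabpa, which are made in most cells, did not pass.

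**Figure D4:**
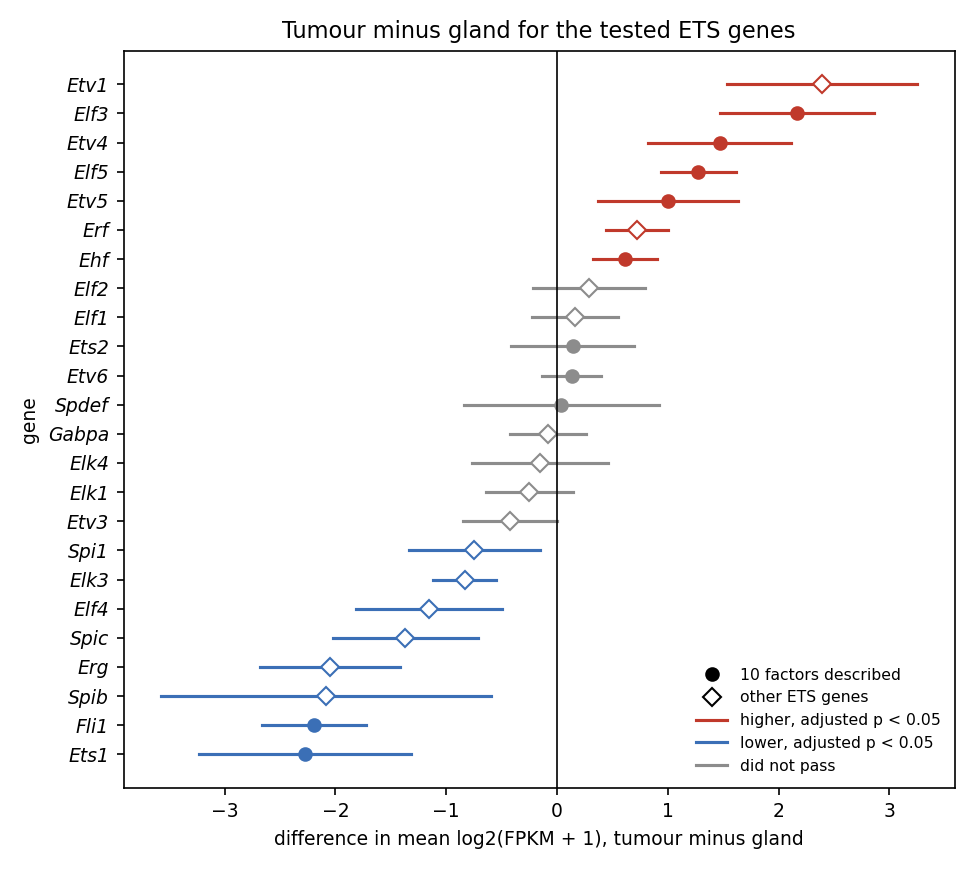
Tumour minus gland difference of the tested ETS genes on the log2(FPKM + 1) scale with 95% intervals, members and other family genes marked apart. Etv1 (2.39) and Elf3 (2.17) lie at the upper end, and Ets1 (-2.28), Fli1 (-2.19), Spib (-2.08) and Erg (-2.05) at the lower end.

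Summed over all 26 ETS genes, the level was 576, 468 and 539 FPKM in the glands and 812, 802 and 835 FPKM in the tumours. Elf5 alone was 29.6 to 33.9% of that sum in the glands and 41.2 to 57.5% in the tumours. Ehf was 15.2 to 16.3% in the glands and 13.8 to 17.0% in the tumours, ranges that overlapped. Elf5 and Ehf together went from between 45.2 and 50.3% to between 58.1 and 71.3%, and Ets1 and Fli1 together from between 6.73 and 10.8% to between 0.601 and 1.45%. Among the tumours the Elf5 share was lowest in tumour 3, where Elf3 and the PEA3 factors were highest. These are shares of RNA level and not of protein or of bound sites.

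**Figure D5:**
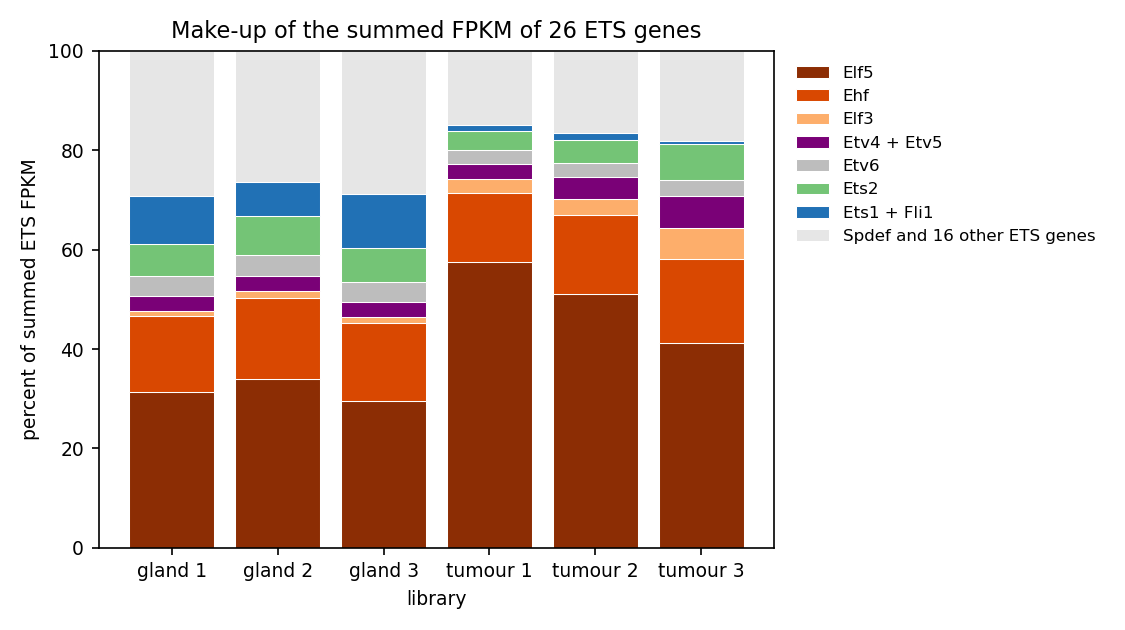
Share of the summed ETS level, in percent, taken by each group of ETS genes in each of the 3 glands and 3 tumours, as stacked bars that start at 0. Elf5 takes 29.6 to 33.9% of the sum in the glands and 41.2 to 57.5% in the tumours.

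Several members are neighbours in the genome. On GRCm38 with GENCODE M21 gene models, Ehf lies at chr2:103263433-103303278 on the minus strand and Elf5 at chr2:103411688-103450989 on the plus strand, so they point away from each other with starts 108410 bases apart. Fli1 at chr9:32422204-32542861 on the minus strand and Ets1 at chr9:32636221-32757820 on the plus strand are arranged in the same way, with starts 93360 bases apart. Erg and Ets2 on chromosome 16 are a further such pair, 115482 bases apart, and moved differently: Erg fell and Ets2 did not pass. The Elf5 minus Ehf log2 difference was 1.0 ± 0.07 in the glands and 1.66 ± 0.39 in the tumours (SD, n = 3 each), a change of 0.66. That was the smallest p the exact permutation test allows (p = 0.1, 0.3 after adjustment over 3 pairs). For Ets1 minus Fli1 the change was -0.08 (exact permutation p = 0.8, adjusted 0.8). The genes on the other side of the members did not follow 1 pattern. Cat, the catalase gene next to Elf5, fell from 141 to 64.8 FPKM (-1.12, adjusted p = 0.00104) where Elf5 rose, and Rnpep, an aminopeptidase gene next to Elf3 at chr1:135253575-135258568, rose from 33.1 to 77.4 FPKM (1.20, adjusted p = 0.000135). These are 2914 and 4226 bases away. Dhx8, 2388 bases from Etv4, did not pass (0.40, adjusted p = 0.0613), and Pacsin1, 3327 bases from Spdef, was below the filter. Others are distant: Meox1, 92199 bases from Etv4, fell (-1.34), and Bcl2l14, 126170 bases from Etv6, rose (1.46). Kirrel3, 1728032 bases from Ets1, fell from 2.06 to 0.365 FPKM (-1.16), so it passed the filter only through the glands. Apip, D17Wsu92e, Tra2b and Psmg1 did not pass.

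The remaining members are Spdef at chr17:27714352-27728955, Etv4 at chr11:101769742-101785371 and Etv5 at chr16:22381309-22439719, all on the minus strand, with Etv6 at chr6:134035700-134270158 and Ets2 at chr16:95702075-95721051 on the plus strand, and Elf3 on the minus strand of chromosome 1. Genes that overlap Elf3, Ets1, Etv6 and Fli1 in the annotation are noncoding and none is in the table. The sources used here do not say whether counting used strand, so reads from such transcripts could not be separated.

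Elf5 works with prolactin receptor signalling through Stat5 to switch on milk genes. Of 14 tested genes of that axis, 6 rose, 3 fell and 5 did not pass (median 0.19), against 45.1% of all tested genes called. Without tumour 3, 6 were called higher and 5 lower, and with glands 1 and 3 left out 3 and 1. Lalba, which makes a subunit of lactose synthase, rose from a mean of 56.0 to 1630 FPKM (4.85), and Csn3, kappa casein, rose from 983 to 6125 FPKM (2.64). Cebpb, a transcription factor of alveolar development, rose from 86.2 to 212 FPKM (1.29). Stat5a itself fell from 51.4 to 23.8 FPKM (-1.08), and Stat5b and the casein gene Csn1s2a fell too. Milk protein genes were among both the higher and the lower genes.

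The hormone-sensing luminal cells are the other main luminal type of the gland. Of 8 tested genes on that list 0 rose, 6 fell and 2 did not pass (median -2.19), and Pgr was below the filter. Over all tested genes 21.9% rose and 23.1% fell. Without tumour 3, 1 gene of the list was called higher and 6 lower. With glands 1 and 3 left out, 3 were called lower and 0 higher. Tnfsf11, which encodes RANKL, fell by 3.80 on the log2 scale, Wnt4 by 2.63 and Foxa1 by 2.20. The tumour means of Tnfsf11 (0.302 FPKM) and Wnt4 (0.704 FPKM) were under 1 FPKM, so both passed the filter only through the glands. Esr1, the estrogen receptor, fell from 8.69 to 1.51 FPKM (-1.97). Ly6a, which did not pass, read 266, 211 and 66.8 FPKM in tumours 1 to 3 and 138, 119 and 157 FPKM in the glands. Gata3 did not pass either, with means of 36.4 FPKM in the glands and 33.4 FPKM in the tumours. Of 8 secretory genes linked to Spdef only 3 passed the filter, and Tff3, Muc5ac and Muc5b were listed at 0 in every library. Muc1, a mucin of luminal epithelium, rose from 11.2 to 59.0 FPKM (2.30), beside a Spdef level near 1 FPKM in both tissues. The other tested genes of that list, Creb3l1 and Creb3l4, did not pass the test (adjusted p = 0.107 and 0.945).

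ETS proteins act with partners and are controlled by other proteins. On a list of 16 such cofactors and regulators, all tested, 7 rose, 2 fell and 7 did not pass (median 0.27), and with glands 1 and 3 left out 3 were called higher and 0 lower. Without gland 3 the counts were 4 and 0, and without tumour 2 they were 4 and 1. Scaling each library to a common sum gave 4 and 2. Junb and Fos, AP-1 proteins that bind next to ETS factors, rose from 34.6 to 81.6 FPKM (1.20) and from 15.9 to 40.5 FPKM (1.31). Hdac3, a histone deacetylase of corepressor complexes, rose from 55.8 to 97.9 FPKM (0.80), and Daxx by 0.83. Runx1 rose, while Runx3 and Det1 fell. Of 7 protease and matrix genes described as ETS targets, 2 rose, 4 fell and 1 did not pass (median -0.47). For these and for the cofactors, the shares over all tested genes were 21.9% higher and 23.1% lower. Mmp9, a gelatinase also made by myeloid cells, fell from 11.7 to 0.622 FPKM (-3.01) and Plau, urokinase, differed by -1.43. Mmp9 passed the filter only through the glands. Mmp13 rose from 0.228 to 2.80 FPKM (1.62), so it passed the filter only through the tumours. Spp1, osteopontin, rose from 173 to 900 FPKM (2.25). Among markers of cells that make such genes, all 8 fibroblast markers fell (median -2.45), as given above. Of the myeloid markers, 3 of 6 fell, 1 rose and 2 did not pass, with a summed level of 953 to 1065 FPKM in the glands and 413 to 763 FPKM in the tumours. The part of both lists in the protease values was not tested.

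For 3 members the tested genes with the most similar pattern were found, as the smallest root mean square difference over the 6 libraries after each gene was centred on its own mean log2 value. For Elf5 these were Knstrn (0.0515), Lin9 (0.0734) and Ckap2l (0.077), genes of cell division. For Ehf they were Naa40 (0.0248), Tpr (0.0325) and R3hdm4 (0.0353). For Fli1 they were Rasa3 (0.0277), Slc28a2 (0.0475) and Ncr1 (0.0759), of which Ncr1 is a receptor of natural killer cells. Slc28a2 and Ncr1 had tumour means of 0.248 and 0.283 FPKM and passed the filter only through the glands. With 6 libraries in 2 groups every gene in this comparison shares the same group structure, and the measure is a description with no test.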

How the data were processed

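Sequencing libraries of 3 mammary glands and 3 mammary tumours were compared. Per the submitters' processing notes, the tools were HISAT2 and StringTie and the build mm10. The gene annotation is named in no source used here. The deposited table has 1 value per gene and library with no unit named in its header. The values were taken as FPKM made by the authors, since StringTie gives FPKM and each library sums to a different total. TPM of a subset of genes cannot be told apart from them. Depth is not stated. From 578 of 7449 pairs of low values (under 0.3 FPKM in both libraries) that lay within 0.02 log2 of a common ratio, relative depth was roughly estimated at between 1.0 and 1.88 times that of the shallowest library, and no interval was made from it.

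Deposited values were put on a log2 scale after adding 1. Genes with a mean of at least 1 over the 6 libraries were fitted with limma 3.58.1 in R 4.3.3, with a mean-variance trend and no covariate. Tests were 2-sided, and adjusted p-values of this fit are Benjamini-Hochberg values over all 13364 tested genes (threshold 0.05). Alternatives were adjusted over the genes tested in each, 18174 with no filter and 9766 with a minimum mean of 5. Permutation p-values were adjusted over 3 pairs. The code was tested on simulated data. Values of a member relative to a marker list come from the same limma fit after subtracting the list's centred mean log2 value. The alternatives were a pseudocount of 0.1, no filter, a minimum mean of 5, 3 scalings, a replicate block, leaving out each library, and leaving out glands 1 and 3. The members were chosen by symbol and not by a rule on their values. Earlier results of these data were known when the members, lists and alternatives were chosen. Named genes are the members, the other ETS genes, up to 4 called genes with the smallest p and up to 2 others per list, marker genes, the nearest coding neighbours and the 3 most similar genes for Elf5, Ehf and Fli1. Other genes are named to complete the counts of a list, after their values were seen.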

Additional observations from a re-analysis of the deposited data

How the results depend on the processing

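Over 14 settings other than those relative to a marker list, the 10 members gave 139 values, of which 127 kept direction and side of the threshold, 8 lost a call and 4 changed sign. Leaving out each library in turn gave 2049 to 3130 genes called higher and 2258 to 3241 lower, with 4 to 5 members higher and 2 to 2 lower. With a mean of at least 5, 1864 genes were lower, a set of fewer genes tested. With glands 1 and 3 left out, 790 were higher and 1262 lower, with 1 member higher and 1 lower, from fewer samples. Quantile normalization moved the median of all genes to 0.113. The log2 differences that changed sign were those of genes not called. They were Elk1 with quantile normalization (0.0212), Spdef without gland 1 (-0.227), without tumour 2 (-0.26) and without glands 1 and 3 (-0.19), Elk4 without tumour 1 (0.051) and without glands 1 and 3 (0.229), Gabpa without tumour 1 (0.0103), and Ets2 without tumour 3 (-0.13). With 1 library left out, Spdef ranged from -0.26 to 0.336, Elk4 from -0.374 to 0.051, Gabpa from -0.224 to 0.0103 and Ets2 from -0.13 to 0.348. For these the cause was not tested. Relative to a marker list, by construction another quantity, the differences of opposite sign were Ehf -0.63, Spdef -1.20, Ets1 0.00799, Fli1 0.0901 and, in comparisons added after seeing the data, Etv5 -0.24 and Erg 0.24.

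Nothing in the labels makes gland and tumour numbers pairs. Deviations of same-numbered libraries from their group means had r of -0.0541, -0.118 and -0.124. With the replicate block, 2147 genes were higher and 2581 lower, with 5 members higher and 2 lower, and the calls of Spi1 and Spib were lost (adjusted p = 0.0579 and 0.0636, limma).

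Depth is unknown, so no counting interval can be given for low genes. The direction of Spdef, near 1 FPKM, was not resolved. The counts of lists under other settings or with libraries left out were added after seeing the data.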
